A study of Macaca mulatta with 24 samples.

Results

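DNA methylation in omental (visceral) white adipose tissue was compared between female rhesus macaques that received testosterone together with a western-style diet and control females. The comparison held 12 of the 24 animals of the series. The 6 control animals (C) carried implants of cholesterol and ate monkey chow. The 6 treated animals (T+WSD) carried testosterone implants and ate the western-style diet, a diet rich in fat. Implants were kept for 3 years in both groups, and the labels give an age of 4 years for all animals, which is younger than the age at biopsy in the methods of the study. C animals were numbered 1 to 6 and T+WSD animals 7 to 12, and all CpGs of the table were used. The other 12 animals received testosterone on chow (T) or cholesterol on the western-style diet (WSD), and here they served to sort CpGs by level and as values set beside the comparison. The animals were chosen by the authors to represent the fat mass and insulin findings of their groups, so they are not a random sample of treated females. T+WSD and C differ in both hormone and diet, and the share of each in a difference cannot be told apart from these 12 animals.

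In mammals methylation is placed mostly on cytosines that precede a guanine (CpGs). CpGs in CpG-rich stretches, such as many promoters, are mostly unmethylated, whereas isolated CpGs in gene bodies and between genes are mostly methylated. CpGs with a middle level often lie in regulatory DNA, where some cells of a tissue carry the mark and others do not. Omental fat holds adipocytes together with stromal, vascular and immune cells. A change in the mixture of cells and a change in methylation within a cell cannot be told apart in a whole biopsy. No marker of the tissue or of its cell types was read, since the methylation table holds no gene names and no annotation was used.

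The assay was RRBS (reduced-representation bisulfite sequencing), which reads CpGs near sites of the enzyme MspI. The values are percent methylation at each CpG and animal, at 841143 CpGs. A C animal had a value at 767744 to 826713 of them, and a T+WSD animal at 780541 to 825237. C 1 had the highest mean methylation of the C animals, 46.3%, and the widest scatter at CpGs of middle level, a median distance of 8.81 points from the median of all animals. T+WSD 8 and T+WSD 12 stood above the other T+WSD animals at CpGs of low and middle level and at dense CpGs. The values of these 3 animals are given beside the results they touch. By the methods of the study, CpGs were kept where at least 4 of the 6 animals in each group had a coverage of at least 10 reads. The depth behind a single value above that is unknown, since the table holds no read counts, and nothing in the labels names a batch.

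Mean methylation over the 475736 CpGs with a value in all 24 animals was 45.7% ± 0.356 (SD, n = 6) in C and 45.1% ± 0.516 in T+WSD, a difference of −0.604 points (exact permutation p = 0.0476). This p was above 0.05 in 8 of 12 omissions of 1 animal, up to 0.0952, and was 0.117 on the arcsine scale and 0.0844 when each animal's mean took in every CpG measured in it. The question was where in the genome the groups differed. CpGs were sorted by their mean level in the 12 T and WSD animals, which take no part in the comparison, by the number of measured CpGs within 100 bp, by chromosome and by distance to the chromosome end. Each class was averaged within an animal and compared between the groups with a two-sided exact permutation test over all splits of the animals into 6 and 6, for which the smallest p is 0.00216. The Benjamini-Hochberg adjustment covered all 54 classes. T+WSD was lower than C past an adjusted p of 0.05 in 19 of the 54 classes (35.2%), and in no class was it higher past that threshold.

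The loss was found at CpGs of high and middle level. CpGs at 60-80% fell by 2.39 points (adjusted exact permutation p = 0.0117) and those at 80-95% fell by 1.35 points (adjusted exact permutation p = 0.0117). At 60-80% the lowest, median and highest animal were at 71.8%, 72.7% and 74.4% in C and at 68.9%, 70.8% and 71.2% in T+WSD. At 80-95% they were at 89.3%, 89.6% and 91.0% in C and at 87.7%, 88.6% and 89.0% in T+WSD. The groups did not overlap in either class, since all 6 T+WSD animals lay below all 6 C animals.

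The classes around these were lower without passing the threshold. At 40-60% the difference was −1.703 points (SE 0.670, adjusted exact permutation p = 0.0693) and at 95-100% it was −0.311 points (SE 0.135, adjusted exact permutation p = 0.0751). At 20-40% it was −0.0571 points (SE 0.765, adjusted exact permutation p = 0.939).

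CpGs of low level, which make up most of the CpG-rich stretches, did not pass the threshold in either direction. Those under 5% averaged 1.18% ± 0.0889 (SD, n = 6) in C and 1.31% ± 0.276 in T+WSD, a difference of 0.129 points (adjusted exact permutation p = 0.311). Those at 5-20% averaged 10.7% ± 0.562 and 11.1% ± 1.29, a difference of 0.413 points (adjusted exact permutation p = 0.553). The wider spread in T+WSD came with T+WSD 8 and T+WSD 12. They were at 13.2% and 12.2% in the 5-20% class, while the other 4 T+WSD animals lay between 10.2% and 10.5%. The T and WSD animals also spread more widely than C in this class, with an SD of 1.10 in T and 1.33 in WSD. T+WSD 8 and T+WSD 12 were left out in a further comparison, a choice made after their values were seen. The differences were then −0.0239 points under 5%, −0.389 at 5-20%, −1.16 at 20-40% and −2.57 at 40-60%.

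**Figure D1:**
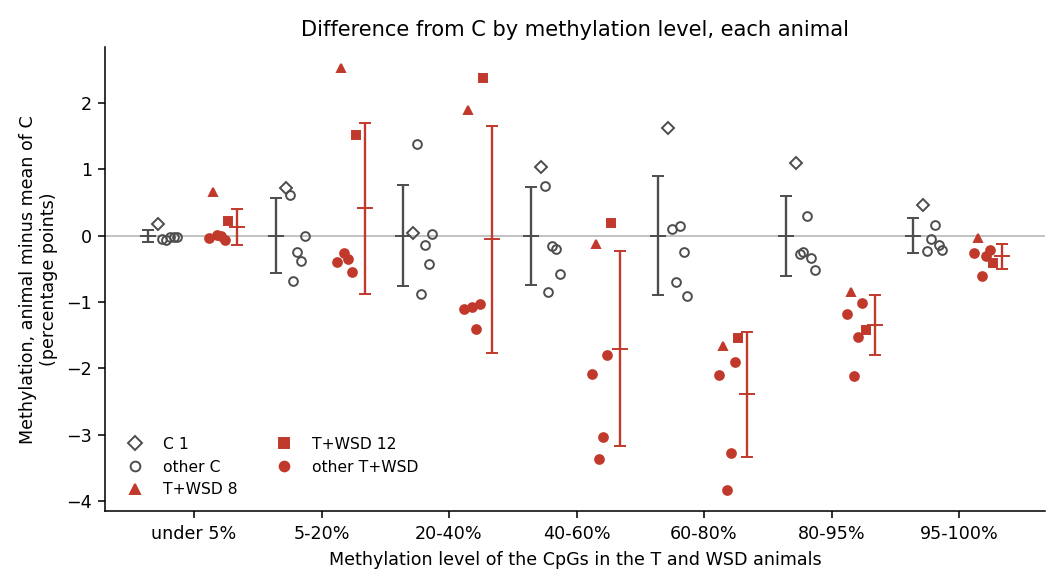
Methylation of each C and T+WSD animal minus the mean of C, in percentage points, for CpGs grouped by their level in the T and WSD animals. Bars are mean ± SD (n = 6). At 60-80% and 80-95% every T+WSD animal lies below every C animal, and from under 5% to 20-40% T+WSD 8 and T+WSD 12 lie above the other T+WSD animals.

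Whether a class differed from the rest of the genome was tested on the difference between the class and all other CpGs within each animal, and 27 of 54 classes passed (50%). Among them were classes whose own differences did not pass. These were the classes under 5% and at 5-20%, the 5 density classes under 20%, and the classes with 6-10 and 11 or more neighbours. Chromosomes 2 and 7 and the distances under 2 Mb, 20-50 Mb and over 50 Mb were also of this kind. A value relative to the rest takes in the change of the rest as well as that of the class. In the 5 density classes under 20% the own differences were 0.153 to 0.554 points, against 0.842 to 1.16 points relative to the rest. Relative to the rest, CpGs at 60-80% differed by −1.98 points (adjusted exact permutation p = 0.00779) and those at 80-95% by −0.960 points (adjusted exact permutation p = 0.0111). For CpGs under 5% the difference between T+WSD and C exceeded that of the rest by 1.13 points, but a class that averaged 1.18% in C had almost no room to fall, so this value was close to fixed by the fall of the rest. For CpGs at 5-20% it exceeded that of the rest by 1.10 points (adjusted exact permutation p = 0.0327). The last of these rested on the set of animals, since it was past the threshold in only 4 of 12 fits that left out 1 animal each, with 0.815 to 1.30 points, and was 0.559 points without T+WSD 8 and T+WSD 12.

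The loss was also graded by CpG density. Isolated CpGs, with no other measured CpG within 100 bp, fell by 1.59 points (adjusted exact permutation p = 0.0117). CpGs with 1-2 neighbours fell by 1.31 points (adjusted exact permutation p = 0.0117) and those with 3-5 fell by 0.780 points (adjusted exact permutation p = 0.0270). The last call was lost in 4 of 12 omissions of 1 animal, with an adjusted exact permutation p of 0.00731 to 0.0668. The difference was −0.186 points with 6-10 neighbours (adjusted exact permutation p = 0.468) and 0.211 points with 11 or more (adjusted exact permutation p = 0.745).

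At isolated CpGs the lowest, median and highest C animal were at 70.8%, 71.1% and 72.4%, and the T+WSD animals at 69.1%, 69.99% and 70.3%. With 11 or more neighbours the lowest, median and highest were at 12.2%, 12.4% and 13.3% in C and at 11.98%, 12.3% and 14.6% in T+WSD. The groups were apart at isolated CpGs and overlapped at the densest CpGs, where T+WSD 8 was the highest of the 12 animals. Without T+WSD 8 and T+WSD 12 the densest class stood at −0.385 points and the class with 6-10 neighbours at −0.505 points, which was then past the threshold.

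All 5 density classes differed from the rest, from −1.03 points at isolated CpGs (adjusted exact permutation p = 0.0111) to 0.988 points with 11 or more neighbours (adjusted exact permutation p = 0.00779). With 6-10 and 11 or more neighbours the own differences, −0.186 and 0.211 points, did not pass. Their values relative to the rest, 0.563 and 0.988 points, thus came mostly from the fall of the rest. Density and level go together, since 74.4% of the densest CpGs but 2.56% of the isolated ones were under 5%. When each density class was weighted to one makeup of levels, the difference was −0.711 points at isolated CpGs (adjusted exact permutation p = 0.0577) and −0.729 points with 1-2 neighbours (adjusted exact permutation p = 0.0554), and none of the 5 classes differed from the rest past the threshold. The weighted difference relative to the rest was −0.123 points at isolated CpGs, −0.202 with 1-2 neighbours and −0.0311 with 3-5. It was 0.221 points with 6-10 (adjusted exact permutation p = 0.365) and 0.842 with 11 or more (adjusted exact permutation p = 0.420). The last was near the unweighted 0.988, but in this weighted class T+WSD spread more widely (SD 1.75) than C (SD 0.695). With neighbours counted within 500 bp the classes kept their order. The class with 6-10 neighbours was then at −0.234 points relative to the rest, against 0.563 with 100 bp. It held a different set of CpGs, which averaged 55.6% in C, against 30.7% with 100 bp.

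The density classes were also compared within a class of level. Among CpGs at 20-80%, T+WSD fell by 2.21 points at isolated CpGs and fell by 2.14 points with 1-2 neighbours (both with an adjusted exact permutation p = 0.0117), and fell by 1.72 points with 3-5 neighbours (adjusted exact permutation p = 0.0438). The call with 3-5 neighbours was lost in 9 of 12 omissions of 1 animal. With 6-10 neighbours the difference was −0.816 points (SE 0.858). With 11 or more it was 0.855 points (SE 2.02), and T+WSD ranged from 39.9% to 51.6% while C ranged from 42.0% to 45.5%. T+WSD 8, at 51.6%, and T+WSD 12, at 48.8%, were above all C animals there, and the other 4 lay between 39.9% and 42.4%. Without T+WSD 8 and T+WSD 12 the differences at 20-80% were −2.47, −2.45, −2.28, −1.96 and −2.13 points from isolated CpGs to 11 or more neighbours, so the densities then lay close together.

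Among CpGs at 80-100% the difference was −1.43 points at isolated CpGs and −0.711 points with 6-10 neighbours, and in each of the 4 classes from 0 to 6-10 neighbours all T+WSD animals lay below all C animals (adjusted exact permutation p = 0.0117 in each). With 11 or more neighbours the difference was −0.229 points (adjusted exact permutation p = 0.598). Under 20% the 5 density classes differed by 0.153 to 0.554 points, and none passed the threshold.

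**Figure D2:**
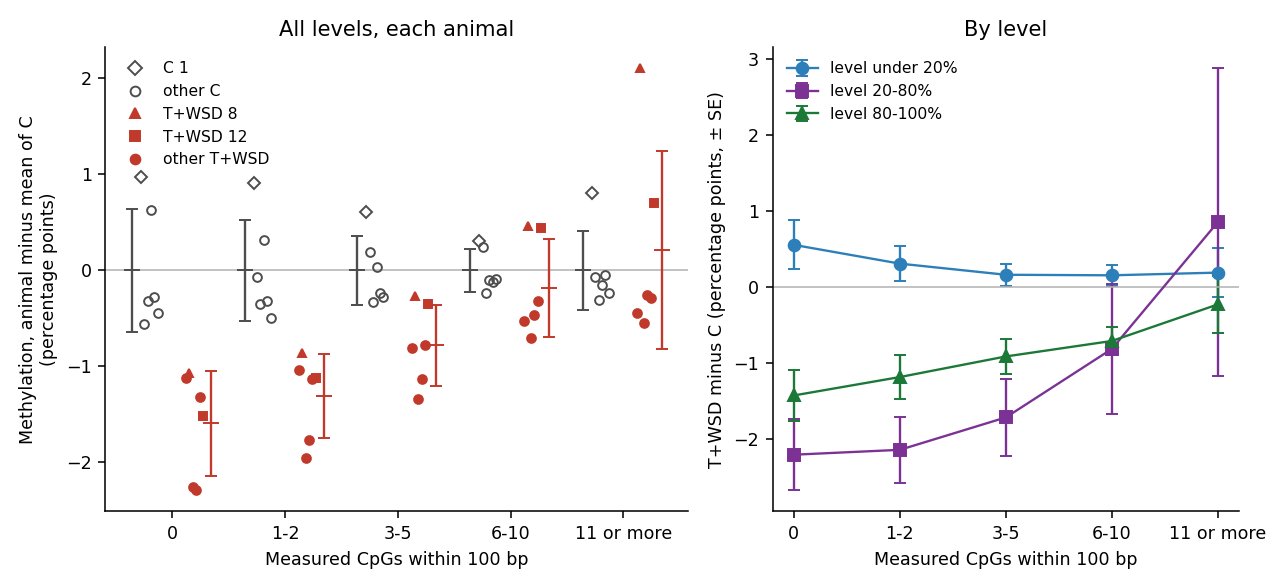
Left, methylation of each animal minus the mean of C by the number of measured CpGs within 100 bp, with mean ± SD (n = 6). Right, T+WSD minus C ± SE for the same classes split by level. The difference is most negative at isolated CpGs of 20-80%, at −2.21 points, and the bar is widest with 11 or more neighbours.

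Along the chromosomes the difference was stronger toward the ends. CpGs within 2 Mb of an end differed by −0.953 points (SE 0.318, adjusted exact permutation p = 0.0557), and those at 2-5 Mb fell by 0.931 points (adjusted exact permutation p = 0.0455). More than 50 Mb from an end the difference was −0.392 points (SE 0.220, adjusted exact permutation p = 0.161). At 2-5 Mb the lowest, median and highest animal were at 55.7%, 55.9% and 56.9% in C and at 54.4%, 55.1% and 56.0% in T+WSD, so the groups overlapped. The call at 2-5 Mb was lost in 10 of 12 omissions of 1 animal, with differences from −1.09 to −0.758 points, and was kept without T+WSD 8 and without T+WSD 12.

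Relative to the rest, CpGs within 2 Mb differed by −0.404 points (adjusted exact permutation p = 0.0159) and those at 2-5 Mb by −0.371 points (adjusted exact permutation p = 0.00779). CpGs at 20-50 Mb differed by 0.258 points (adjusted exact permutation p = 0.00779), and those over 50 Mb by 0.256 points (adjusted exact permutation p = 0.0111). The outer parts held more CpGs of middle level, 28.4% within 2 Mb against 15.7% over 50 Mb. After weighting to one makeup of levels no distance class differed from the rest past the threshold. The values were then −0.0968 points within 2 Mb, −0.0750 at 2-5 Mb, 0.101 at 20-50 Mb and 0.0562 over 50 Mb, and the lowest adjusted exact permutation p was 0.0693, at 20-50 Mb.

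All 21 chromosomes had a lower mean in T+WSD, and 6 passed the threshold. Chromosome 10 fell by 0.942 points and chromosome 12 fell by 0.832 points (both with an adjusted exact permutation p = 0.0312). Chromosome 8 fell by 0.803 points (adjusted exact permutation p = 0.0213), chromosome 5 fell by 0.652 points (adjusted exact permutation p = 0.0455), chromosome 13 fell by 0.648 points (adjusted exact permutation p = 0.0270) and chromosome 11 fell by 0.598 points (adjusted exact permutation p = 0.0492). On chromosome 10, 5 of 6 T+WSD animals lay below all C animals. The other chromosomes ranged from −0.366 points on chromosome 19 to −0.875 points on chromosome X, where the SE was 0.623. In 12 omissions of 1 animal the call was lost in 10 on chromosomes 5 and 11, in 7 on chromosome 10, in 6 on chromosomes 12 and 13 and in 1 on chromosome 8. Without C 1 no chromosome passed, and without T+WSD 8 the number was 19.

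Relative to the rest, chromosomes 8, 10 and 12 differed by −0.207, −0.362 and −0.236 points (adjusted exact permutation p = 0.0327, 0.00779 and 0.0390). The values for chromosomes 8 and 12 missed the threshold in 3 and 9 of 12 omissions of 1 animal. Chromosomes 2 and 7 differed by 0.234 and 0.218 points (adjusted exact permutation p = 0.0111 for both). After weighting to one makeup of levels none of the 21 passed relative to the rest, although the differences on chromosomes 12 and 8 stayed about as large, at −0.245 and −0.180 points (adjusted exact permutation p = 0.139 for both). Chromosome 10 was then at −0.200 points, and chromosomes 2 and 7 were at 0.109 and 0.112 points.

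**Figure D3:**
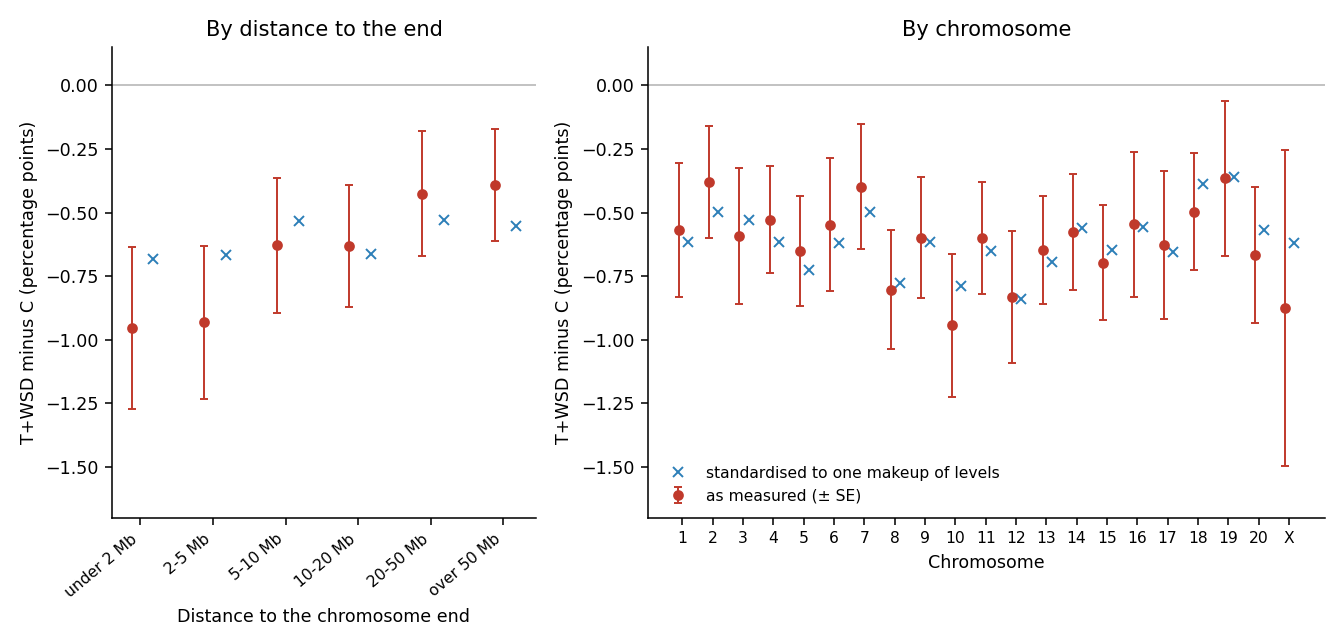
T+WSD minus C in percentage points by distance to the chromosome end and by chromosome, as measured (± SE, n = 6 per group) and after weighting each class to one makeup of methylation levels. The measured difference runs from −0.953 points within 2 Mb of an end to −0.392 points over 50 Mb, and the weighted values by distance lie closer together.

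Windows of 5 Mb with at least 50 CpGs gave a finer map. Of 574 windows, 498 (86.8%) had a lower mean in T+WSD, with a median difference of −0.560 points. By limma on arcsine-transformed window means, 91 windows passed an adjusted p of 0.05 (15.9%), of which 90 were lower and 1 was higher. They lay on all 21 chromosomes, with 1 to 8 on each, and the groups did not overlap in 34 of the 91, against 38 of all 574 (6.62%). The 91 were chosen for a low p, which favours windows without overlap.

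The window with the lowest p covered 45-50 Mb of chromosome 20, where 164 CpGs averaged 64.8% ± 0.486 (SD, n = 6) in C and 61.6% ± 1.23 in T+WSD (limma adjusted p = 0.00549). The next were 15-20 Mb of chromosome 1, with 49.6% ± 0.369 and 47.9% ± 0.4001, and the first 5 Mb of chromosome 10, with 59.4% ± 0.636 and 57.5% ± 0.428 (limma adjusted p = 0.0121 for both). On chromosome 3 at 30-35 Mb the difference was −1.53 points, and on chromosome 16 at 10-15 Mb it was −1.65 points (limma adjusted p = 0.0193 for both). In these 5 windows the groups did not overlap. The single higher window was 45-50 Mb of chromosome 12, with 47.3% ± 0.391 in C and 48.5% ± 0.655 in T+WSD (limma adjusted p = 0.0330), and there the groups overlapped. No higher window was called without C 1, C 3, C 4 or C 5, nor without T+WSD 7, T+WSD 8, T+WSD 9 or T+WSD 10. In the other omissions of 1 animal 1 or 2 were called. The count of windows was 1 without C 1, 3 without T+WSD 9, 3 without T+WSD 10 and 26 without C 4, against 115 without T+WSD 8.

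Local differences in both directions were superimposed on this broad loss. By limma, 208 of 100864 tiles of 1 kb (0.206%) passed an adjusted p of 0.05 and a difference of 10 points, 80 higher (0.0793%) and 128 lower (0.127%) in T+WSD. By unadjusted p under 0.05, 3206 tiles were higher and 7814 lower.

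Calls were concentrated at middle levels. Among tiles at 20-40% in the T and WSD animals 1.16% were called, 27 gains and 35 losses, and at 40-60% 1.13% were called, 33 gains and 41 losses. At 60-80% the share was 0.255%, with 11 gains and 29 losses. At 80-100% it was 0.0302%, with 1 gain and 14 losses, and under 20% it was 0.0723%, with 8 gains and 9 losses. A rate near 0% or 100% leaves little room for a difference of 10 points, so the share called is bounded by the threshold itself at both ends.

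The unadjusted calls, which need no minimum difference, gave the direction of each class. Under 20%, 3.66% of tiles were higher and 2.68% lower. At 20-40% the shares were 11.4% and 12.2%, at 40-60% they were 7.41% and 15.4%, and at 60-80% they were 3.35% and 12.8%. From 40% up, tiles with an unadjusted call were thus more often lower in T+WSD. Tiles under 20% had little room to fall, and the means of the classes under 5% and at 5-20% turned below C without T+WSD 8 and T+WSD 12, as given above. By density, 0.270% of tiles with 1-2 neighbours were called, 0.207% with 3-5, 0.134% with 6-10 and 0.0339% with 11 or more. By distance to the chromosome end, called losses made up 0.149% of tiles within 2 Mb and 0.0885% over 50 Mb, and called gains 0.0785% and 0.0826%. The unadjusted lower share was 9.32% within 2 Mb and 6.31% over 50 Mb.

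**Figure D4:**
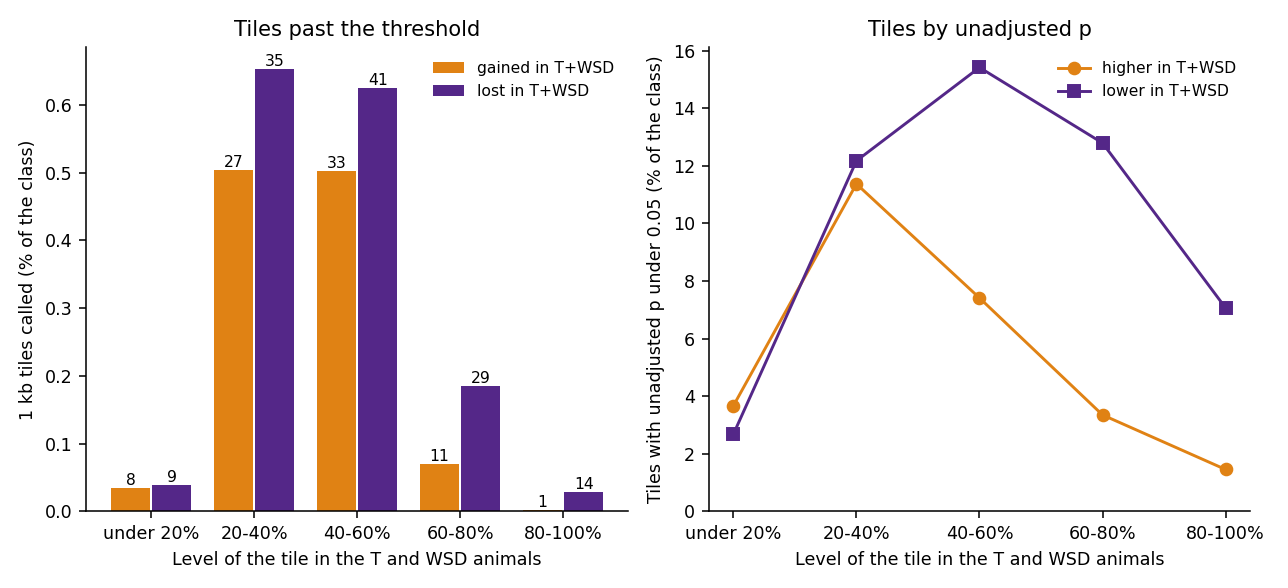
Left, share of 1 kb tiles called higher or lower in T+WSD by limma for each level in the T and WSD animals, with the number of tiles above each bar. Right, share of tiles with an unadjusted limma p under 0.05. The 20-40% and 40-60% classes hold 62 and 74 of the 208 called tiles, and the ratio of lost to gained tiles is highest at 80-100%, with 14 losses and 1 gain.

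The tile count changed with single animals. It was 10 without C 1, 26 without C 3, 29 without T+WSD 8 and 29 without T+WSD 9, and 321 without C 2. A fit of only the 12 animals called 33 tiles, 9 higher and 24 lower, and without T+WSD 8 and T+WSD 12 there were 12.

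Called tiles seldom had called neighbours. When called tiles of one direction less than 100 kb apart were joined, 79 stretches of gain and 126 of loss resulted, and only 3 held more than 1 tile. On chromosome 19 from 494001 to 581000, 2 tiles with 23 CpGs differed by −16.2 points on average. On chromosome 10 from 1839001 to 1885000, 2 tiles with 39 CpGs differed by −18.2 points, and on chromosome 6 from 76908001 to 76916000, 2 tiles with 9 CpGs were higher by 27.0 points.

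The tile with the largest gain and the one with the largest loss were taken from each level class, among called tiles with at least 5 CpGs. Coordinates are those of the rheMac8 build, and no annotation of that build was used, so no gene is named. These tiles were chosen for their differences, and their values are a description.

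Under 20% the largest gain was on chromosome 19 from 45316001 to 45317000 (7 CpGs). The lowest, median and highest animal were at 22.001%, 28.6% and 39.1% in C and at 45.5%, 53.6% and 67.6% in T+WSD. T averaged 11.4% and WSD 13.1%, so both lay below C while T+WSD lay above it. The largest loss in this class was on chromosome 15 from 108002001 to 108003000 (7 CpGs), where C was at 11.6%, 26.1% and 33.0% and T+WSD at 0.891%, 3.14% and 17.2%. C 5, at 11.6%, lay below T+WSD 8 and T+WSD 11 there.

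At 20-40% the largest gain was on chromosome 20 from 66348001 to 66349000 (13 CpGs). C was at 16.3%, 26.4% and 43.5% and T+WSD at 41.9%, 50.5% and 65.4%, and T and WSD both averaged 38.3%. The largest loss was on chromosome 16 from 75255001 to 75256000 (8 CpGs), with 38.2%, 48.3% and 63.0% in C and 18.4%, 24.2% and 34.4% in T+WSD. The groups overlapped at the gain, through C 4, and not at the loss.

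At 40-60% the largest gain was on chromosome 16 from 4148001 to 4149000 (5 CpGs), with 17.01%, 28.6% and 39.3% in C and 51.2%, 63.7% and 92.8% in T+WSD. T+WSD 8 held the highest value. The largest loss was on chromosome 19 from 8483001 to 8484000 (7 CpGs), with 63.3%, 68.7% and 79.1% in C and 37.1%, 42.3% and 56.9% in T+WSD. The groups did not overlap in either tile.

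At 60-80% the largest gain was on chromosome 3 from 34750001 to 34751000 (6 CpGs). C was tight, at 46%, 49.9% and 51.6%, and T+WSD was at 69.2%, 71.0% and 88.2%, with 11.1% of values missing. The largest loss was on chromosome 7 from 7239001 to 7240000 (7 CpGs), with 58%, 74.2% and 82.7% in C and 33.8%, 49.0% and 55.9% in T+WSD. Again the groups did not overlap in either tile.

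At 80-100% the single gain named by this rule was on chromosome 2 from 134393001 to 134394000 (7 CpGs), with 48.6%, 64.3% and 81.3% in C and 83.9%, 86.6% and 92.0% in T+WSD. T averaged 79.4% and WSD 81.6%. The loss was on chromosome 10 from 91126001 to 91127000 (12 CpGs), 1.69 Mb from the end of the chromosome as measured, with 81.6%, 86.7% and 92.3% in C and 54.8%, 70.1% and 81.2% in T+WSD. The T+WSD animals spread more widely than the C animals at this loss and less widely at the gain.

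Regions were also built from neighbouring CpGs without fixed borders, by the comb-p procedure. It gave 294 differentially methylated regions (DMRs), 130 gains and 164 losses, and the CpGs inside them were 0.245% of all CpGs. The base count used in its Sidak correction was set after a first count had been seen. Counting all bases of each cluster of CpGs in place of 1 base per CpG gave 90 DMRs, 49 gains and 41 losses. Without C 1 there were 111, and without T+WSD 8 and T+WSD 12 there were 90, of which 26 were gains. The balance turned without C 2 (189 gains and 146 losses), T+WSD 9 (79 and 75) and T+WSD 10 (102 and 89). In every other omission of 1 animal losses outnumbered gains. The groups did not overlap in 67 of the 130 gains and 93 of the 164 losses, against 1.29% of the 82406 tiles with a value in all 12 animals, and this reflects the choice of the DMRs by their difference.

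A gain spanned a median of 175 bp and 5.5 CpGs, and a loss 177 bp and 6 CpGs. The DMRs lay where called tiles lay by level, with 35.4% of them at 20-40% and 39.5% at 40-60%, against 5.32% and 6.50% of all tiles. By density they held 36.7% against 33.4% of all tiles at 1-2 neighbours and 45.6% against 43.5% at 3-5, but 2.04% against 5.85% with 11 or more. By distance to the chromosome end they held 12.9% against 12.6% of all tiles within 2 Mb, 12.6% against 11.8% at 2-5 Mb, 14.97% against 10.9% at 5-10 Mb, 17.3% against 15.3% at 10-20 Mb, 26.2% against 29.3% at 20-50 Mb and 15.3% against 16.8% over 50 Mb. By chromosome, the ratio of the share of DMRs to that of tiles was highest on chromosome 18 (3.06% against 1.73%), chromosome 16 (8.50% against 5.85%), chromosome 20 (7.14% against 4.99%), chromosome 10 (8.84% against 6.23%) and chromosome 19 (8.84% against 6.92%). It was lowest relative to tiles on chromosome X, at 0.680% against 3.21%. Chromosome 19 held 17 gains and 9 losses and chromosome 10 held 8 and 18. Chromosome 18 held only 9 DMRs, and 1 of its 1745 tiles (0.0573%) was called, against 0.206% of all tiles. No test of these shares was made.

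The differences were smaller outside the DMRs than inside them. In gains the mean difference was 21.3 points inside the DMR, 6.60 points at up to 100 bp from it, 7.41 points at over 100 and up to 300 bp, 4.05 points at up to 1000 bp and 0.742 points at up to 3000 bp, each band starting where the last ended. In losses it was −18.4 points inside, and −12.004, −9.41, −4.12 and −1.86 points in the same 4 bands. DMR borders were set by the same values, so the step at the border is part of the definition.

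The T and WSD animals share no animal with this comparison's 2 groups, although they entered the estimate of the variance. In the 130 gains the mean over all DMRs was 33.5% ± 6.58 (SD, n = 6) for C, 40.4% ± 1.83 for T, 44.97% ± 5.74 for WSD and 56.2% ± 5.31 for T+WSD. In the 164 losses it was 55.2% ± 4.23 for C, 47.2% ± 0.937 for T, 43.8% ± 4.30 for WSD and 36.2% ± 3.18 for T+WSD. DMRs were chosen for C and T+WSD lying far apart, so any other group tends to fall between them. C 1 was the lowest C animal in gains, at 21.99%, and the highest in losses, at 62.9%.

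WSD and T were compared with each other at these DMRs as a description, since neither entered the contrast. WSD was above T in 112 of 130 gains (86.2%) and in 36 of 164 losses (21.95%), against 55.5% of all tiles. The median difference of WSD minus T was 4.55 points in gains and −3.49 points in losses, so at most DMRs the mean of WSD lay on the side of T+WSD. Over all gains WSD 20, 21 and 23 lay above every T animal, and over all losses WSD 20 to 23 lay below every T animal. WSD 19 lay on the other side of all T animals, at 38.7% in gains and 49.6% in losses, and WSD 24 lay within their range in both. DMRs are not independent of each other, and the WSD animals spread more widely than the T animals, so no test was made.

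**Figure D5:**
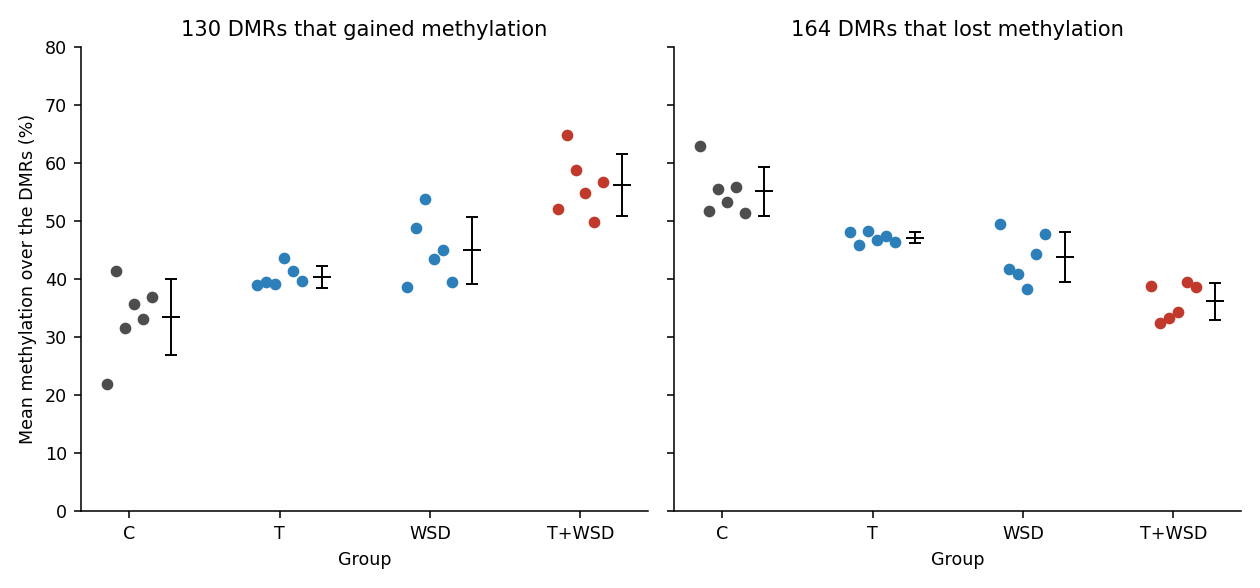
Mean methylation over the 130 DMRs that gained and the 164 that lost methylation in T+WSD, for each animal of the 4 groups, with group mean ± SD (n = 6). The distance between C and T+WSD reflects the choice of the regions. T and WSD animals took no part in the contrast, and WSD averaged 44.97% in gains and 43.8% in losses against 40.4% and 47.2% in T.

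The DMRs with the most CpGs were examined animal by animal. The longest gain by CpGs was on chromosome 14 from 10820303 to 10820873 (36 CpGs), with a lowest, median and highest animal at 9.59%, 22.4% and 37.1% in C and at 30.2%, 43.7% and 49.98% in T+WSD. A stretch of chromosome 10 between 62244003 and 62244337 held 26 CpGs, and C was tight there, at 12.8%, 13.3% and 17.8%, and T+WSD was at 19.2%, 26.6% and 50.6%, with T+WSD 8 as the highest. Between 150433470 and 150433965 of chromosome 5, over 23 CpGs, the C animals fell apart, with C 1 at 15.2%, C 4 at 14.1% and the others from 49.9% to 66.7%, while T+WSD was at 58.9%, 64.8% and 69.4%. The groups were apart on chromosome 10 and overlapped on chromosomes 14 and 5.

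The loss with the most CpGs was on chromosome 11 from 52716495 to 52717070 (34 CpGs), with 14.3%, 41.7% and 62.4% in C and 8.39%, 15.03% and 16.8% in T+WSD. C 6, at 14.3%, lay among the T+WSD animals. The stretch of chromosome 1 from 60738242 to 60738609 held 27 CpGs, and C was at 10.3%, 19.9% and 39.1% and T+WSD at 2.30%, 6.42% and 11.6%, so C 2, the lowest, lay below T+WSD 11. The third loss, at 1335753 to 1336196 of chromosome 6, held 26 CpGs, and C was at 33.5%, 36.9% and 50.2% and T+WSD at 15.1%, 25.2% and 30.4%, without overlap. C 1 had the highest value of the C animals in all 3 losses.

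Among single CpGs, 58 of 841143 (0.0069%) passed in limma, 27 higher (0.00321%) and 31 lower (0.00369%). Of 45204 CpGs at 20-40% in the T and WSD animals 6 were higher and 8 lower, and of 49841 at 40-60% 9 and 11. Of 61592 CpGs at 5-20% 3 were higher and 6 lower, and of 89841 at 60-80% 4 and 3. Under 5%, 254827 CpGs held 3 higher and 0 lower. At 80-95%, 212152 CpGs held 2 and 2, and at 95-100%, 127686 CpGs held 0 and 1. Leaving out C 1 gave 3 such CpGs and leaving out C 2 gave 81. A trended prior gave 2, log2 ratios gave 23, and a test of only the CpGs at 5% to 95% gave 0. Of the 457750 CpGs in that test 42437 had an unadjusted limma p under 0.05. The largest gain was on chromosome 2 at 122266670, with 13.6%, 31.5% and 41.7% in C and 75%, 76.1% and 100% in T+WSD. On chromosome 16 at 47315395 C was at 18.2%, 30% and 45.8% and T+WSD at 68.8%, 80.9% and 81.8%, with a value in 4 animals of each group. On chromosome 6 at 63263952 C was at 7.14%, 15.4% and 37.5% and T+WSD at 52.4%, 62.6% and 73.7%, with a value in 5 C animals. The groups did not overlap at any of the 3. These CpGs were chosen for their large gains, which favours CpGs without overlap.

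The largest loss was on chromosome 10 at 36534376, with 54.6%, 66.5% and 76.9% in C and 21.9%, 30.6% and 44% in T+WSD. On chromosome 16 at 42631629 C was at 40.9%, 49.3% and 58.5% and T+WSD at 9.43%, 15.3% and 23.3%. On chromosome 1 at 16878893 C was at 62.8%, 75.0% and 82.8% and T+WSD at 32.3%, 42.1% and 50%. At these 3 losses the groups did not overlap either, and T and WSD averaged between C and T+WSD. The losses were chosen for their large differences, and that choice favours both features.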

How the data were processed

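The deposited table gives percent methylation per CpG, which the authors made from RRBS reads on the rheMac8 build. The submitters' processing notes name Trim Galore 0.4.2, Bismark 0.16.1, FastQC 0.11.5 and limma. Groups came from the labels, with 6 animals in each. Replicates are animals. The classes, members and lists were chosen with earlier results of these data known.

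Class means and 5 Mb windows used CpGs of chromosomes 1 to 20 and X with a value in all 24 animals. CpGs, 1 kb tiles (at least 3 CpGs) and 5 Mb windows (at least 50 CpGs) were fitted with limma 3.58.1 in R 4.3.3 on arcsine-transformed values, with all 4 groups in one fit and Benjamini-Hochberg adjustment over all features. A feature was called at an adjusted p under 0.05 and, for CpGs and tiles, a difference over 10 points. For DMRs the comb-p procedure was rewritten (CpGs joined within 300 bp, at least 2 CpGs, Sidak p under 0.1, a difference over 10 points); the tool itself was not used, and counting 1 base per CpG in the Sidak correction was set from memory of comb-p after the count of 90 DMRs, over all bases, had been seen. Python 3.11.15 with numpy 2.4.6, pandas 2.3.3, scipy 1.17.1, numba 0.67.0 and matplotlib 3.10.9 was used.

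Regions were named by rule. They were the called tile (at least 5 CpGs) with the largest gain and loss in each level class, the 3 gaining and 3 losing DMRs with the most CpGs, the 3 single CpGs with the largest gain and loss, the 3 longest runs of called tiles and up to 5 windows per direction.

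The fits were tested on simulated data. Of 50 tiles each with planted differences of 20, 30 and 40 points, 20, 39 and 50 were called, and of 50 with 10 points 2 were called. The first region simulation planted 20 runs of 8 CpGs inside larger clusters and recovered 6 of them. It was then replaced as the test by 100 whole clusters, all 100 of which were recovered. In both region simulations low p-values were planted directly, with no simulated methylation values. Their recovery thus does not measure which differences of 20 points between the groups the DMR count covers.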

Additional observations from a re-analysis of the deposited data

Results flagged for a closer look

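In each class and named region the highest and lowest animal of a group were compared with the nearest of the others by Dixon's criterion. Of 152 groups examined 13 met it, and chance alone gives about 1 in 20, or 7.6. C 1 stood above the other C animals in 10 of the 13. It was at 1.36% where the next C animal was at 1.16% for CpGs under 5%, at 13.3% against 12.5% with 11 or more neighbours, and at 2.49% against 1.72% for CpGs under 20% with 11 or more neighbours. By chromosome it was at 43.8% on chromosome 1, 44.8% on chromosome 5, 47.5% on chromosome 8, 44.7% on chromosome 11 and 48.3% on chromosome 17. By distance it was at 56.9% at 2-5 Mb and 40.5% at 20-50 Mb. These classes share CpGs and the same animal, so they are not independent.

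T+WSD 8 stood above the other T+WSD animals for CpGs under 20% with 11 or more neighbours, at 3.43% against 2.07% in T+WSD 12. At the single CpG on chromosome 2 at 122266670, T+WSD 12 was at 100% against 81.8% in the next animal. At the single CpG on chromosome 16 at 47315395, T+WSD 11 was at 68.8% against 80% in the next of 4 animals with a value. The part of sample quality in these values was not tested.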

How the results depend on the processing

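No paired analysis was possible because the C animals are numbered 1 to 6 and the T+WSD animals 7 to 12, so the groups share no number. The cause of the changes below was not tested.

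The losses at 60-80% and 80-95% and at 0 and 1-2 neighbours stayed past the threshold in all 12 omissions of 1 animal. The mean difference was −0.536 points when each animal's mean took in every CpG measured in it (exact permutation p = 0.0844) and −0.00832 on the arcsine scale (exact permutation p = 0.117), and ran from −0.759 to −0.474 points in the omissions, of which 8 of 12 lost the call. With levels taken from C and T+WSD the 20-40% class was at 0.0487 points. With a 500 bp window the class with 11 or more neighbours was at −0.0597 points, the one with 6-10 at −0.234 relative to the rest, and CpGs at 20-80% with 11 or more at −0.629. After weighting by level, 0 density, chromosome or distance classes passed, as measured or relative to the rest. Some chromosomes moved little, with −0.841 points on chromosome 12, −0.725 on chromosome 5, −0.694 on chromosome 13 and −0.776 on chromosome 8 (adjusted exact permutation p = 0.0554 for each). The class at 5-10 Mb was at 0.0815 points relative to the rest. Without chromosome X 2 distance classes passed.

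T+WSD 8 and T+WSD 12 were left out together after their values were seen. Then 5 level classes, 21 chromosomes and 6 distance classes passed, and 3 chromosomes relative to the rest. The differences were −0.0239 points under 5%, −0.389 at 5-20%, −0.385 with 11 or more neighbours and −2.13 at 20-80% with 11 or more. Under 20% they were −0.0534 with 3-5, −0.0543 with 6-10 and −0.183 with 11 or more neighbours. Relative to the rest, 20-40% was at −0.267 and 10-20 Mb at 0.00134 points. There were 18 single CpGs, 90 DMRs and 12 tiles.

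Omitting 1 animal gave −0.00829 to 0.604 points at 5-20%, −0.545 to 0.218 at 20-40%, −0.168 to 0.373 with 11 or more neighbours, −0.0964 to 0.324 under 20% with 11 or more and −0.612 to 1.72 at 20-80% with 11 or more. It gave 2 to 4 level classes, 0 to 19 chromosomes (3 to 6 relative to the rest), 0 to 6 distance classes, 3 to 81 single CpGs, 111 to 335 DMRs, 10 to 321 tiles and 1 to 115 windows. For chromosomes relative to the rest, single values under the alternatives are given only for the 5 that passed, a limit set after the table was seen.

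Single CpGs numbered 38 in a fit of C and T+WSD only, 23 as log2 ratios, 2 with a trended prior and 226 at an adjusted p under 0.1. Among the 457750 CpGs at 5% to 95% 0 were called, and 42437 had an unadjusted limma p under 0.05. DMRs numbered 90 with all bases in the Sidak correction. Tiles numbered 33 in a fit of C and T+WSD only, 20 as log2 ratios, 658 at an adjusted p under 0.1 and 387 over CpGs with a value in all 24 animals. Windows of 10 Mb gave 38. Read depth, known only as the minimum of the study's filter, limits every value at single CpGs.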
